A study of Mus musculus with 20 samples.

Results

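The genes described here are 8 genes known for their work in the podocyte, namely Nphs1, Podxl, Wt1, Synpo, Cd2ap, Ptpro, Kirrel and Foxc2. They were picked by gene name in the annotation of the arrays, out of 27827 gene names in all, and each was found there with 1 to 3 probes. Their levels were compared in whole kidney RNA of male C57BL/6 mice of 8 to 12 weeks, in 5 groups of 4 arrays. Control mice had neither surgery nor treatment, so that they were no sham group. In IRI (ischemia and reperfusion injury) mice, both renal pedicles were clamped for 45 min under Ketamine-Xylazine and the kidneys were taken after 6 h of reperfusion. IRI+Hemin mice were given Hemin, an inducer of heme oxygenase 1, at 25 mg/kg i.p. 24 h before that surgery, and Hemin mice were given Hemin without surgery. In IPC+IRI mice, a preconditioning clamp of 15 min preceded the same IRI by 7 days. The comparisons therefore ask whether genes of the glomerular filter differ after ischemia, and whether they differ when ischemia follows preconditioning or Hemin. The surgery itself and the ischemia cannot be told apart in comparisons with Control or Hemin, and all groups were read on whole kidney, in which podocytes are a minority of the cells.

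Podocytes are the epithelial cells that cover the capillaries of the glomerulus. Their foot processes interlock, and the gaps between them are bridged by the slit diaphragm, the last layer of the filter that keeps protein out of urine. Nphs1 (nephrin) and Kirrel (Neph1) are transmembrane proteins of the slit diaphragm, and Cd2ap is the adaptor that ties them to the actin skeleton and to signalling. Podxl (podocalyxin) gives the foot processes their negative charge, Ptpro is a receptor type tyrosine phosphatase of their apical membrane, and Synpo (synaptopodin) binds their actin. Wt1 and Foxc2 are transcription factors of podocyte development. Cd2ap is also made by many other cells, Podxl by the endothelium, and Wt1 by mesothelial cells.

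Probes of Podxl, Cd2ap and Ptpro are shown because probes of 1 gene did not always move alike, and those of Nphs1 and Kirrel as the readers of the slit diaphragm. Each is a DNA oligonucleotide of 60 bases, placed by the array annotation on mouse build mm9, and no annotation of that build was used here, so that exon and intron are not given. The Nphs1 probe A_51_P496741 (chr7:31266833-31267052, plus strand) and the Ptpro probe A_52_P84311 (chr6:137391209-137392064, plus strand) cover 220 and 856 bases of the genome, more than their own length, so that each bridges a gap in the genome. The other Ptpro probe, A_51_P492707, lies at chr6:137411520-137411579, 20311 bases further along. The Podxl probes A_52_P380263 (chr6:31470405-31470464) and A_51_P118284 (chr6:31472943-31473002) and the Cd2ap probes A_52_P175066 (chr17:42930324-42930383) and A_51_P229076 (chr17:42933165-42933224) all lie on the minus strand, 2538 and 2841 bases apart. The Kirrel probe A_52_P452569 is placed at chr3:86893479-86893538 on the minus strand. Wt1 and Foxc2 are each read by 1 probe, A_52_P673458 (chr2:105013428-105013487) and A_51_P196444 (chr8:123642693-123642752), both on the plus strand. Of Nphs1, of the Ptpro probe A_52_P84311 and of Kirrel all 60 bases are printed below, and of the other Ptpro probe and those of Podxl and Cd2ap the first 30, in lower case and 5′ to 3′.
Nphs1 A_51_P496741: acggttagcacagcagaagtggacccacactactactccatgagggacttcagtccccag
Kirrel A_52_P452569: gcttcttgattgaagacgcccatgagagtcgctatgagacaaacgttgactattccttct
Ptpro A_52_P84311: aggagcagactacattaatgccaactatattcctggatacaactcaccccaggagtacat
Ptpro A_51_P492707: agaggagctgggaattcagaagtcacgaca
Podxl A_52_P380263: tgtaaatacaagagccacatgtttatttac
Podxl A_51_P118284: aactgcactgcagagctccagaccacccaa
Cd2ap A_52_P175066: cccggtcttaacagaggactccttacactc
Cd2ap A_51_P229076: aagacagcagaaatggtggtgtgatgaaga

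Log2 expression means here the log2 of a gene's signal, averaged over its probes and divided by the 75th percentile of its array, so that 0 lies at that percentile. It sets arrays against each other for 1 gene and does not compare genes. A gene was called higher or lower at an adjusted p below 0.05 in limma over all genes tested. On each array 57.4% to 67.4% of all genes gave a signal well above background, and arrays of the same group correlated at r between 0.979 and 0.992 over genes. The kidney markers Lrp2, Slc34a1, Umod, Slc12a1 and Aqp2 were well above background on all Control arrays. IPC+IRI replicate 1 stood apart in the markers of the endothelium, with a summed signal below that of every other array. Each group was hybridised on a slide of its own, so that slide and group cannot be told apart in any comparison. The labels number the 4 replicates of a group without saying what separates them, and p-values measure the spread between these arrays.

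Of the 8 podocyte genes, 7 were well above background on all 20 arrays and were tested in every comparison. Kirrel was well above background on 2 arrays, IRI replicates 1 and 3, and was not tested. In IRI vs Control, Cd2ap rose, and Ptpro, Foxc2 and Synpo fell. That is 1 gene higher and 3 genes lower of 7, beside 17.0% higher and 33.7% lower of all 17719 genes tested. The median log2 fold change was -0.24 over the 7 podocyte genes and -0.17 over all genes tested. As the RNA is of whole kidney, fewer podocytes and less RNA per podocyte cannot be told apart.

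In IPC+IRI vs Control, Cd2ap was higher and Foxc2 and Podxl were lower, beside 23.1% of all genes higher and 32.6% lower. In IPC+IRI vs IRI, Ptpro was higher and no podocyte gene was called lower by limma, although 3 of the 7 had an unadjusted p below 0.05, and the background was 26.0% higher and 17.7% lower. In IRI+Hemin vs IRI, Ptpro and Synpo were higher and no gene was called lower, where 2 of the 7 had an unadjusted p below 0.05, beside 26.1% of all genes higher and 18.0% lower. Hemin vs Control gave no call among the podocyte genes by limma and no unadjusted p below 0.05, beside 18.4% of all genes higher and 17.5% lower. Without normalization between arrays, 4 of them were called higher there (Nphs1, Synpo, Cd2ap and Ptpro), with 94.8% of all calls on the higher side. In IRI+Hemin vs Hemin, Cd2ap was higher and Foxc2 and Ptpro were lower, beside 16.4% higher and 27.8% lower of all genes. In IRI+Hemin vs Control, Cd2ap was higher and Foxc2, Podxl and Ptpro were lower, beside 24.3% higher and 33.1% lower. SAM, the test that the methods name, called none of the 7 in the 5 comparisons it was run for, those of IRI and IPC+IRI with Control, of IPC+IRI and IRI+Hemin with IRI, and of Hemin with Control, and it called 814 genes higher and 2154 lower in IRI vs Control over all genes. The comparisons share arrays with one another, and their counts are not independent.

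The interaction of Hemin and IRI asks whether ischemia changed a gene by another amount after Hemin, as the difference between IRI+Hemin vs Hemin and IRI vs Control. It was called for none of the 7 podocyte genes by limma, with 1 unadjusted p below 0.05, beside 5.83% of all genes higher and 1.95% lower. The lowest p was that of Synpo, with a log2 difference of 0.58 ± 0.26 (SE) and an adjusted p of 0.2.

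**Figure D1:**
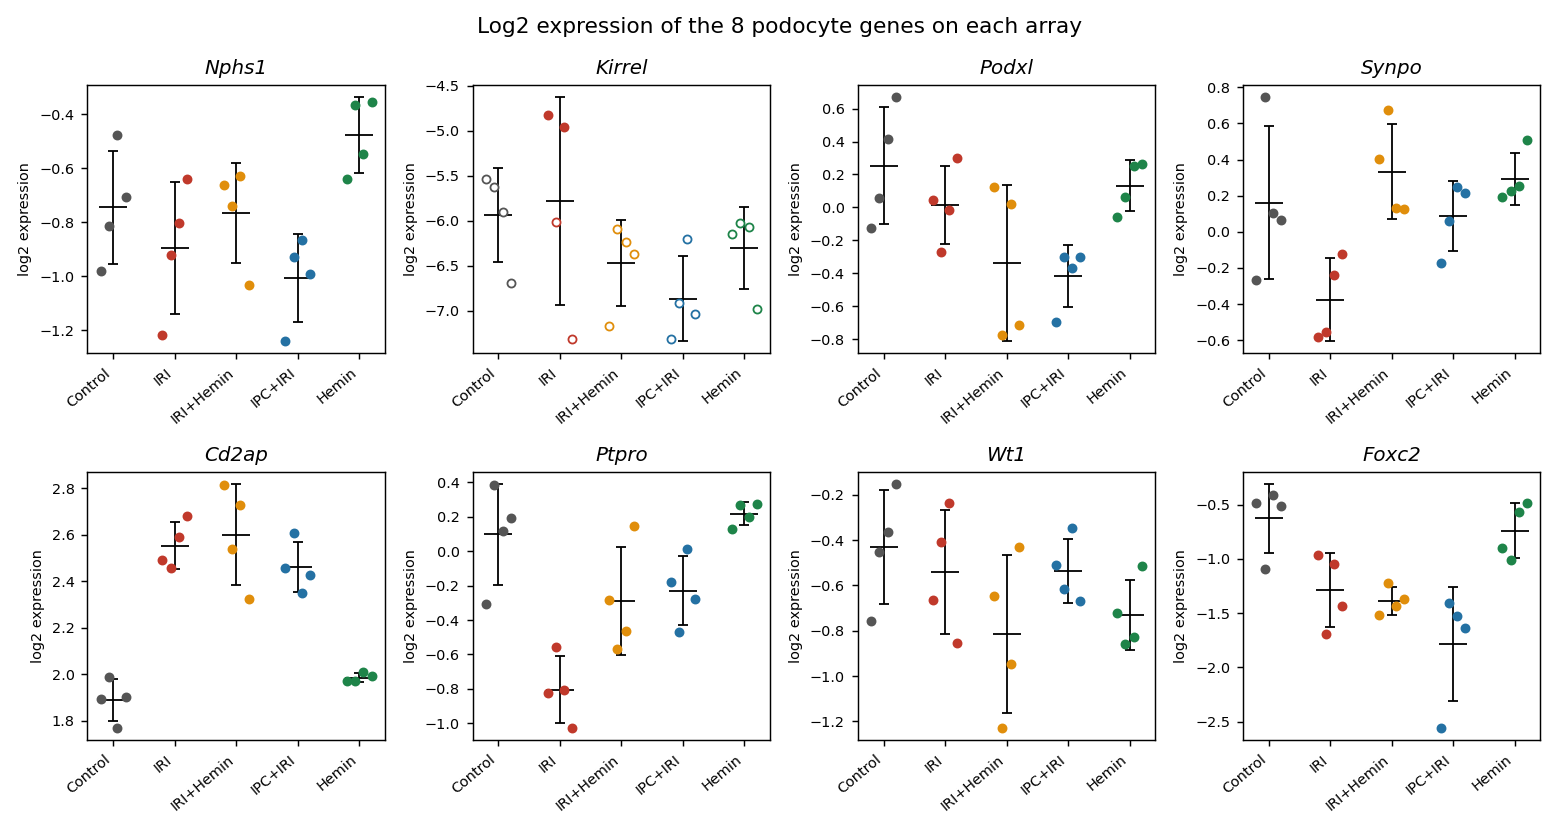
Log2 expression (y axis) of each podocyte gene on the 4 arrays of each group (x axis), with the mean and SD as black bars, filled points for arrays on which the gene was well above background and open points for the others. The Cd2ap values of the 12 ischemic arrays all lie above those of the 8 arrays without ischemia, the Ptpro values of IRI lie below those of Control, and 18 of the 20 Kirrel points are open.

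Of the slit diaphragm genes, Nphs1 gave no call in any comparison. Its mean log2 expression was -0.48 ± 0.14 (SD, n = 4) in Hemin, -0.74 ± 0.21 in Control, -0.77 ± 0.18 in IRI+Hemin, -0.90 ± 0.24 in IRI and -1.01 ± 0.16 in IPC+IRI. Neighbours in this order overlapped. The log2 fold change in IRI vs Control was -0.15, with a 95% interval from -0.45 to 0.14, and that in IPC+IRI vs Control was -0.26, with an interval from -0.56 to 0.03. The widest gap in a comparison, that of IRI+Hemin vs Hemin at -0.29, had an adjusted p of 0.103. A call was gained in IPC+IRI vs Control with the percentile over probes well above background (-0.37, adjusted p = 0.0414) and in Hemin vs Control without normalization between arrays (0.83, adjusted p = 0.0214).

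Kirrel, the binding partner of nephrin, was near the background. The probe A_52_P452569 was well above background on IRI replicates 1 and 3, and the other probe, A_51_P324860, on no array. Gene values lay between -6.69 and -5.54 in Control, between -7.31 and -4.83 in IRI, between -7.16 and -6.09 in IRI+Hemin, between -7.31 and -6.20 in IPC+IRI and between -6.98 and -6.03 in Hemin. No order of the groups was read from them, and no fold change is given. Its relatives Kirrel2 and Kirrel3, on the list of other podocyte genes, were well above background on 6 and 1 of the 20 arrays.

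Cd2ap was the podocyte gene that rose with ischemia in every group that had it. Its log2 expression was 1.89, 1.99, 1.77 and 1.90 in Control and 1.97, 1.97, 2.01 and 1.99 in Hemin. It was 2.49, 2.46, 2.59 and 2.68 in IRI, 2.81, 2.54, 2.73 and 2.32 in IRI+Hemin, and 2.46, 2.61, 2.35 and 2.43 in IPC+IRI. No ischemic array overlapped an array without ischemia, while the 3 ischemic groups overlapped one another, as did Control and Hemin. The rise was 1.59-fold in IRI vs Control (log2 0.67 ± 0.10, SE, adjusted p = 4.97e-05), 1.49-fold in IPC+IRI vs Control (adjusted p = 0.000174), 1.64-fold in IRI+Hemin vs Control (adjusted p = 1.96e-05) and 1.53-fold in IRI+Hemin vs Hemin (adjusted p = 0.00016). The exact permutation p was 0.029 in these 4 comparisons, the smallest that 4 against 4 arrays can give. Between the ischemic groups the log2 differences were -0.09 in IPC+IRI vs IRI, with a 95% interval from -0.31 to 0.12, and 0.05 in IRI+Hemin vs IRI, with an interval from -0.17 to 0.27. With normexp background correction the call was lost in IRI vs Control (adjusted p = 0.0575) and in IRI+Hemin vs Hemin (adjusted p = 0.309), in the last of which it was also lost without normalization between arrays (0.155) and in the deposited log2 matrix (0.158).

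Markers used for the parietal epithelium were higher in the ischemic groups in their summed signal, as Cd2ap was, but not every gene of that list rose. The summed signal of that list of 6 genes, relative to the 75th percentile, ranged from 27.3 to 35.3 in Control and from 35.2 to 41.8 in Hemin, against 129 to 152 in IRI, 134 to 166 in IRI+Hemin and 99.9 to 133 in IPC+IRI. In IRI vs Control, 4 of the 6 were higher and 1 lower, beside 17.0% and 33.7% of all genes, the median log2 fold change was 1.13, and the 2 that moved most were the keratins Krt8 (2.79) and Krt18 (2.23), which tubular cells also make. The sum for the proximal tubule list was 407 to 450 in Control and 299 to 420 in IRI. The part of these cells in the Cd2ap values was not tested.

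Against Control, both Cd2ap probes rose in IRI (0.61 and 0.93) and in IPC+IRI (0.50 and 0.91), while in IRI+Hemin A_52_P175066 rose by 0.78 and A_51_P229076 gave 0.27 (adjusted p = 0.0831). Probe A_52_P175066 carried 79.2% to 91.4% of the summed signal of the pair and so sets the gene value. Probe A_51_P229076 read 0.02, 0.09, 0.13 and 0.22 in Control, 0.95, 1.01, 1.32 and 0.89 in IRI, and 0.27, 0.42, 0.42 and 0.41 in IRI+Hemin. On this probe IRI+Hemin lay below IRI without overlap, with a log2 fold change of -0.66 ± 0.13 (SE) and an adjusted p of 0.000501 over all probes tested. On A_52_P175066 the same difference was 0.16 ± 0.12, with an adjusted p of 0.274. With the mean of the probes' log2 values in place of the log2 of their mean, Cd2ap was called lower in IRI+Hemin vs IRI, at -0.25 (adjusted p = 0.0395).

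Among the genes of the foot process membrane and its actin, Ptpro showed the largest fall of a podocyte gene in IRI vs Control. Its log2 expression was -0.31, 0.39, 0.12 and 0.20 in Control and -0.83, -0.56, -0.81 and -1.03 in IRI, without overlap. The values were -0.28, -0.57, -0.46 and 0.15 in IRI+Hemin, -0.18, -0.47, 0.01 and -0.28 in IPC+IRI, and 0.13, 0.27, 0.20 and 0.28 in Hemin. The IRI values lay below all those of Control, IPC+IRI and Hemin, while IRI+Hemin replicate 2 lay just below IRI replicate 2. IPC+IRI and IRI+Hemin overlapped each other and Control, whose replicate 1 was lower than its other arrays. Ptpro was 1.87-fold lower in IRI than in Control (log2 -0.90 ± 0.16, SE, adjusted p = 0.000207, exact permutation p = 0.029), and this call held in the 11 alternatives of the limma fit, with log2 fold changes from -1.74 (deposited log2 matrix) to -0.54 (normexp), and without any 1 array. Against IRI it was 1.49-fold higher in IPC+IRI (adjusted p = 0.00887, groups without overlap) and 1.43-fold higher in IRI+Hemin (adjusted p = 0.0169, overlapping groups).

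Ptpro also stayed below the groups without ischemia after Hemin, by 1.42-fold against Hemin (adjusted p = 0.0175) and by 1.31-fold against Control (adjusted p = 0.0498), and in IPC+IRI vs Control its log2 fold change of -0.33 was not called (adjusted p = 0.0979). Without IRI replicate 4 or IRI+Hemin replicate 4 the call in IRI+Hemin vs IRI was lost (adjusted p = 0.0524 and 0.066), and without IRI+Hemin replicate 2 or 3 that in IRI+Hemin vs Hemin (adjusted p = 0.0636 and 0.0525). The call in IRI+Hemin vs Control was lost without any 1 of 6 arrays, Control replicates 2, 3 and 4 and IRI+Hemin replicates 1, 2 and 3 (adjusted p between 0.0773 and 0.155), and also under 7 other alternatives (0.0599 to 0.703), and that of IPC+IRI vs Control was gained without Control replicate 1 (-0.46, adjusted p = 0.023), with the mean of log2 values over probes (-0.86, adjusted p = 0.000942) and with the percentile over probes well above background (-0.44, adjusted p = 0.0184).

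The higher Ptpro of IPC+IRI and IRI+Hemin over IRI rested on 1 of its probes. Probe A_51_P492707, with 91.8% to 98.8% of the summed signal, was higher in IPC+IRI vs IRI (log2 fold change 0.64 ± 0.17, SE, adjusted p = 0.0057) and in IRI+Hemin vs IRI (0.57 ± 0.17, adjusted p = 0.0116). Probe A_52_P84311, the one that bridges a gap in the genome, read -3.80, -3.70, -3.65 and -3.64 in IRI and -5.55, -4.13, -4.36 and -4.30 in IPC+IRI, with IPC+IRI replicate 1 not well above background. It was lower in IPC+IRI than in IRI (-0.89 ± 0.33, adjusted p = 0.0345), but at -0.57 (adjusted p = 0.139) without IPC+IRI replicate 1, and without any 1 of the 4 IRI arrays the call was lost as well (adjusted p between 0.0521 and 0.0656). It gave -0.61 ± 0.33 in IRI+Hemin vs IRI (adjusted p = 0.137). Against Control, A_52_P84311 fell by 1.45 on the log2 scale in IPC+IRI (adjusted p = 0.00119) and by 1.17 in IRI+Hemin (adjusted p = 0.00561), with overlapping groups, and both calls held without any 1 array. A_51_P492707 gave -0.28 (adjusted p = 0.179) and -0.35 (adjusted p = 0.0925) there, called without Control replicate 1 in both (0.0475 and 0.0226) and without IRI+Hemin replicate 4 in the last (0.0177). Both probes were lower in IRI than in Control in their means, at -0.91 (adjusted p = 0.000292) and -0.56 (adjusted p = 0.17, and -0.91 with an adjusted p of 0.017 without Control replicate 2). With the mean of log2 values over the probes, Ptpro came to -0.13 in IPC+IRI vs IRI (adjusted p = 0.618) and to -0.02 in IRI+Hemin vs IRI (adjusted p = 0.937), so that both calls and their direction depend on how the probes are joined. With normexp background correction both were lost as well (adjusted p = 0.188 and 0.0885), as was that in IRI+Hemin vs Hemin (0.46, and 0.302 in the deposited log2 matrix).

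**Figure D2:**
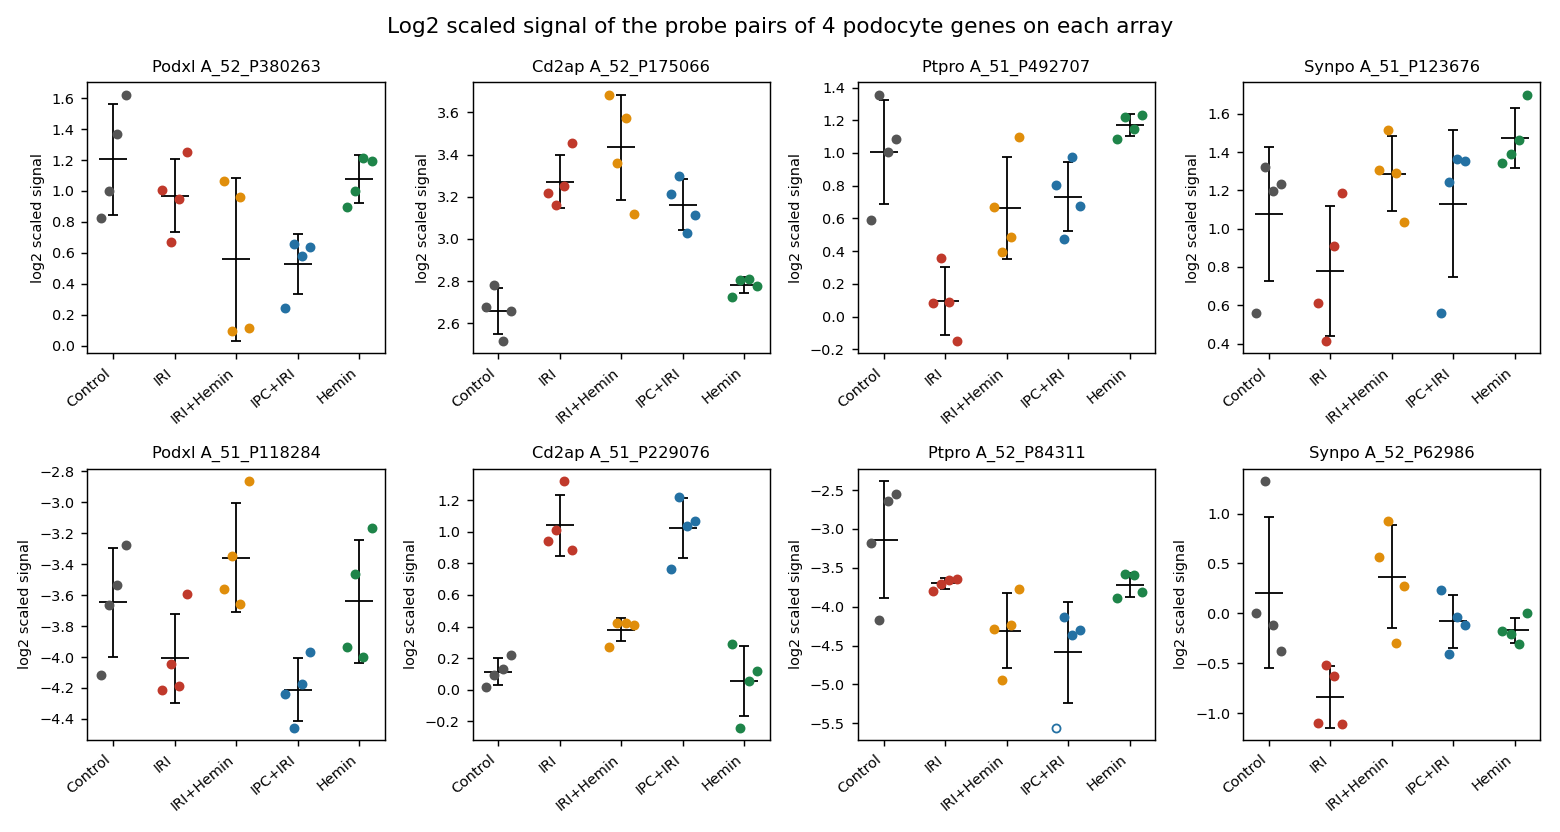
Log2 scaled signal (y axis) of each probe of the pairs of Podxl, Cd2ap and Ptpro, and of the pair of Synpo probes well above background, on each array by group (x axis), with mean and SD as black bars and open points where the probe was not well above background. From IRI to IPC+IRI the means of the Ptpro probes go opposite ways, and from IRI to IRI+Hemin the Cd2ap probe A_51_P229076 falls to 0.38 while A_52_P175066 is at 3.43 against 3.27.

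Synpo was lower in IRI than in Control, and higher in IRI+Hemin than in IRI. Its log2 expression was -0.27, 0.75, 0.10 and 0.06 in Control and -0.58, -0.56, -0.24 and -0.12 in IRI. It was 0.40, 0.67, 0.13 and 0.13 in IRI+Hemin, -0.17, 0.06, 0.25 and 0.21 in IPC+IRI, and 0.19, 0.22, 0.25 and 0.51 in Hemin. Only IRI+Hemin and Hemin lay wholly above IRI, and Control replicate 1 lay within IRI. Synpo was 1.45-fold lower in IRI than in Control (log2 -0.54 ± 0.18, SE, adjusted p = 0.0219, exact permutation p = 0.086) and 1.64-fold higher in IRI+Hemin than in IRI (log2 0.71 ± 0.18, adjusted p = 0.00505, exact permutation p = 0.029). In IPC+IRI vs IRI the log2 fold change of 0.46 ± 0.18 missed the threshold narrowly (adjusted p = 0.0509).

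The fall of Synpo in IRI was lost without Control replicate 2 (-0.34, adjusted p = 0.0878), IRI replicate 1 (0.0654) or IRI replicate 2 (0.0611), and under 4 alternatives, normexp (0.194), no normalization (0.255), the probe of highest signal (0.243) and the compared arrays alone (0.0657). The call in IRI+Hemin vs IRI was lost with the probe of highest signal (0.0526) and in the deposited log2 matrix (0.0787), and the difference between IPC+IRI and IRI was called without IRI replicate 4 (0.0358) or IPC+IRI replicate 1 (0.035). The last was also called under 4 alternatives, no normalization (0.0252), the deposited log2 matrix (0.0093), the stricter filter (0.0481) and the compared arrays alone (0.0403). Of its 3 probes, A_51_P317376 was well above background on no array. Probe A_52_P62986 read 0.004, 1.32, -0.12 and -0.38 in Control and -1.10, -0.52, -0.63 and -1.10 in IRI, below all Control values. It fell by 1.04 on the log2 scale in IRI vs Control (adjusted p = 0.00815), and by 0.67 without Control replicate 2 (adjusted p = 0.0259). It was 1.21 higher in IRI+Hemin vs IRI (adjusted p = 0.00345) and 0.76 higher in IPC+IRI vs IRI (adjusted p = 0.0476), the last lost without any 1 of 6 arrays, IRI replicates 1, 3 and 4 and IPC+IRI replicates 1, 3 and 4 (adjusted p between 0.0558 and 0.118). On A_51_P123676, with 49.6% to 82.6% of the signal, these 3 log2 differences were -0.30, 0.51 and 0.35, and none was called (adjusted p = 0.245, 0.0509 and 0.171). Without IRI replicate 4 or IRI+Hemin replicate 4 the middle one was called (0.0201 and 0.0392), and without IPC+IRI replicate 1 the last (0.54, adjusted p = 0.0324).

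As the sum of its probes, Podxl was lower than in Control after preconditioning or Hemin followed by ischemia, and it was not called in IRI vs Control. The values were -0.13, 0.06, 0.41 and 0.67 in Control, 0.05, -0.27, -0.01 and 0.30 in IRI, and -0.06, 0.06, 0.25 and 0.27 in Hemin. They were -0.69, -0.30, -0.37 and -0.30 in IPC+IRI, below every value of those 3 groups. In IRI+Hemin they fell into a high and a low pair, 0.12 and 0.02 for replicates 1 and 3 and -0.78 and -0.71 for replicates 2 and 4. Podxl was 1.59-fold lower in IPC+IRI than in Control (log2 -0.67 ± 0.21, SE, adjusted p = 0.0111, exact permutation p = 0.029) and 1.51-fold lower in IRI+Hemin than in Control (log2 -0.59 ± 0.21, adjusted p = 0.0219, exact permutation p = 0.14). In IRI vs Control the log2 fold change of -0.24 had a 95% interval from -0.68 to 0.20. Against IRI, the log2 fold changes of -0.43 in IPC+IRI (adjusted p = 0.102) and -0.35 in IRI+Hemin (adjusted p = 0.18) were not called.

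The Podxl call in IPC+IRI vs Control was lost with normexp background correction (adjusted p = 0.0642) and without normalization between arrays (0.621). That in IRI+Hemin vs Control was lost without normalization (0.823), with the mean of log2 values over probes (0.38), in a fit of the compared arrays alone (0.0869), and without Control replicate 3 or 4 or IRI+Hemin replicate 2 or 4 (adjusted p between 0.0583 and 0.0861), and in IRI+Hemin vs Hemin, where the log2 fold change was -0.47, a call was gained without IRI+Hemin replicate 1 or 3 (0.0263 and 0.0419). Probe A_52_P380263 carried 88.8% to 97.4% of the signal. In IPC+IRI vs Control this probe gave -0.67 ± 0.22 (SE, adjusted p = 0.0147), a call lost without Control replicate 4 (-0.54, adjusted p = 0.0605). The probes went opposite ways in their means in IRI+Hemin vs Control, with A_52_P380263 at -0.65 ± 0.22 (adjusted p = 0.0185, lost without Control replicate 4 or IRI+Hemin replicate 2 or 4) and A_51_P118284 at 0.29 ± 0.22 (adjusted p = 0.271). Probe A_51_P118284 gave -0.56 ± 0.22 in IPC+IRI vs Control (adjusted p = 0.0382), a call lost without any 1 of 6 arrays, Control replicates 2, 3 and 4 and IPC+IRI replicates 1, 2 and 3 (0.0566 to 0.128). It was higher in IRI+Hemin than in IRI (0.65 ± 0.22, adjusted p = 0.0225), a call lost without IRI replicate 1 or 3 or IRI+Hemin replicate 4 (0.0605 to 0.0848), where A_52_P380263 gave -0.41 ± 0.22 (adjusted p = 0.134, and -0.58 with an adjusted p of 0.0412 without IRI+Hemin replicate 1). Endothelial cells make Podxl too, and of the 10 endothelial markers 5 were lower and 1 higher in IPC+IRI vs Control, beside 32.6% and 23.1% of all genes, with Tek (-1.60) and Plvap (-1.24) moving most. The call of the higher one, Flt1 (0.57), was lost without any 1 of 6 of the 8 arrays (adjusted p between 0.0737 and 0.111). Without IPC+IRI replicate 1, 5 were lower and 2 higher, the median log2 fold change went from -0.53 to -0.33, and Tek was at -1.43 and Plvap at -0.83. The summed signal of these markers was 29.0 to 35.3 in Control, 27.0 to 34.7 in IRI, 33.5 to 41.7 in IRI+Hemin, 26.0 to 38.5 in Hemin and 14.3 to 37.4 in IPC+IRI, with the lowest value in IPC+IRI replicate 1, and all 10 were well above background in the series. Without that array Podxl was at -0.58 in IPC+IRI vs Control (adjusted p = 0.037). The part of the endothelium in the Podxl values was not tested.

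Of the transcription factors, Wt1 gave no call. It is read by 1 probe printed in 10 spots, of which 8 to 10 were kept on each array, and the spots of an array varied with a coefficient of variation of 2.4% to 8.72%. The group means were -0.43 ± 0.25 (SD, n = 4) in Control, -0.54 ± 0.14 in IPC+IRI, -0.54 ± 0.27 in IRI, -0.73 ± 0.15 in Hemin and -0.81 ± 0.35 in IRI+Hemin, and neighbours overlapped. The largest difference, that of IRI+Hemin vs Control, was -0.38 ± 0.17 (SE, adjusted p = 0.0664) and was called without Control replicate 1 (0.0293) or IRI+Hemin replicate 4 (0.0179), and with the percentile over probes well above background (-0.50, adjusted p = 0.0138). In IRI vs Control the 95% interval of the log2 fold change ran from -0.47 to 0.25. The summed signal of 5 markers of mesothelium and stroma, cells that make Wt1 as well, ranged from 0.204 to 1.67 in Control, 1.62 to 5.29 in IRI, 1.21 to 2.95 in IRI+Hemin, 0.478 to 4.25 in IPC+IRI and 0.62 to 1.95 in Hemin. Krt19, a keratin that duct epithelium also makes, went from a mean of -1.58 in Control to 1.37 in IRI and was the only one of 4 tested that was called in IRI vs Control (2.96 ± 0.60, SE, adjusted p = 0.000553). Msln, Upk3b and Upk1b were not called there, and Lrrn4 was well above background on 1 array, of IRI. In IRI+Hemin vs Control, 2 of the 4 were called higher and 0 lower, beside 24.3% and 33.1% of all genes. These were Krt19 and Msln (2.32, adjusted p = 0.0432), and the Msln call was lost without any 1 of 5 of the 8 arrays (adjusted p between 0.0782 and 0.165). The part of these cells in the Wt1 values was not tested.

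Foxc2 was lower in all 3 ischemic groups. Its log2 expression was -0.48, -1.10, -0.41 and -0.51 in Control and -0.90, -1.01, -0.57 and -0.48 in Hemin. It was -0.96, -1.69, -1.05 and -1.44 in IRI, -1.52, -1.22, -1.43 and -1.37 in IRI+Hemin, and -2.56, -1.40, -1.53 and -1.64 in IPC+IRI. The values of IRI+Hemin and IPC+IRI lay below all values of Control and Hemin, and IRI overlapped both sides. Against Control the fall was 1.58-fold in IRI (log2 -0.66 ± 0.23, SE, adjusted p = 0.0229, exact permutation p = 0.086), 1.69-fold in IRI+Hemin (adjusted p = 0.00891) and 2.23-fold in IPC+IRI (log2 -1.16 ± 0.23, adjusted p = 0.000384), and against Hemin it was 1.56-fold in IRI+Hemin (adjusted p = 0.0295).

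Without IPC+IRI replicate 1 the log2 fold change of Foxc2 in IPC+IRI vs Control was -0.90 (adjusted p = 0.00088). The call in IRI vs Control was lost without any 1 of 5 arrays, Control replicates 1, 3 and 4 and IRI replicates 2 and 4 (adjusted p between 0.0533 and 0.0811), and that in IRI+Hemin vs Hemin without any 1 of 4, IRI+Hemin replicates 1 and 3 and Hemin replicates 3 and 4 (adjusted p between 0.0589 and 0.0843). With normexp the Foxc2 calls in IRI vs Control (0.242), IRI+Hemin vs Control (0.0872) and IRI+Hemin vs Hemin (0.424) were lost, and without normalization between arrays all 4 Foxc2 calls (0.237, 0.508, 0.108 and, in IPC+IRI vs Control, 0.08). In IPC+IRI vs IRI the log2 fold change of -0.50 was not called (adjusted p = 0.0872) but was without IRI replicate 2 (0.0437) or IPC+IRI replicate 2 (0.0463).

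**Figure D3:**
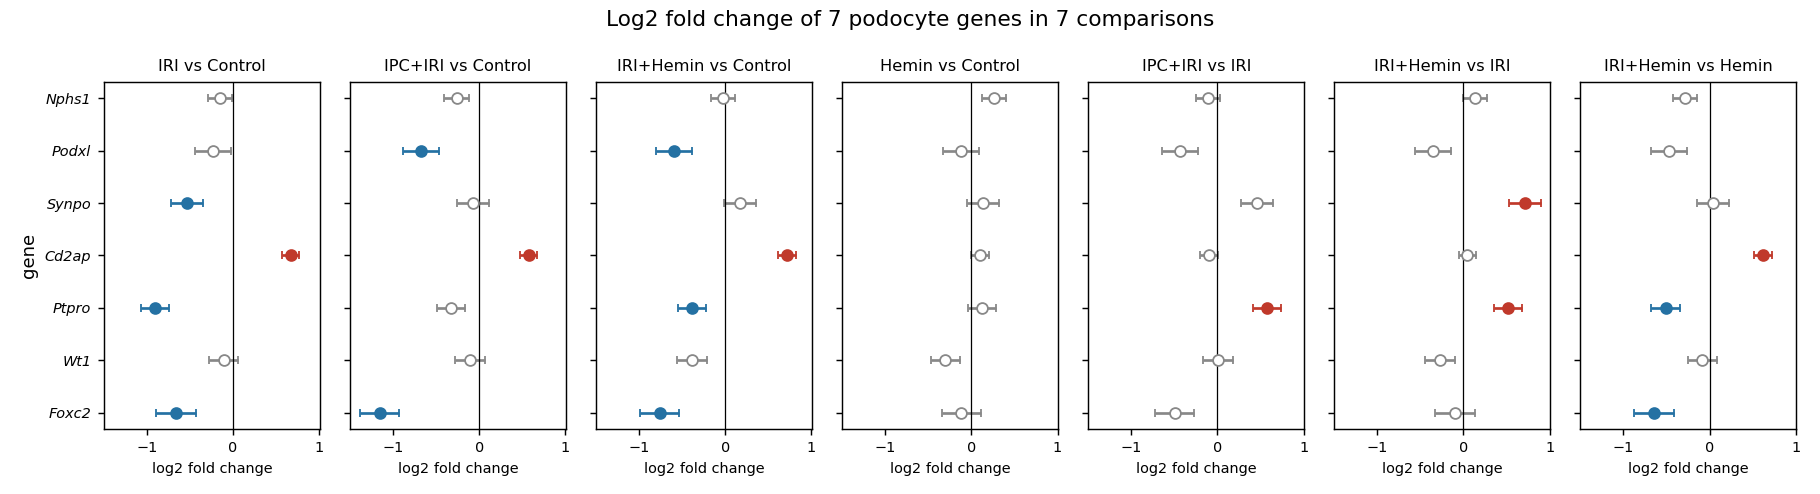
Log2 fold change (x axis) of the 7 podocyte genes tested (y axis) in each comparison, as points with the SE as bars, red where called higher, blue where called lower and open grey where not called. Cd2ap is called higher in the 4 comparisons of an ischemic group with Control or Hemin, Ptpro is lowest in IRI vs Control at -0.90, and Hemin vs Control has open points alone.

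The podocyte genes did not share 1 pattern over the arrays. Of the 21 pairs among the 7 genes well above background on all 20 arrays, 12 correlated above 0, with Pearson's r between -0.75 and 0.65 and a median of 0.15. With the mean of each group subtracted, r lay between -0.48 and 0.76 with a median of 0.11. The arrays share slides within a group, and these values are a description. Among 14533 genes well above background on all arrays, those with a pattern most like that of Nphs1 included Stxbp2 (r = 0.84), Slc27a4 (0.79), Zbtb48 (0.77) and Hgd (0.76), none of them on a podocyte list used here. Podxl came 220th (0.59), Foxc2 423rd (0.55), Synpo 682nd (0.51), Ptpro 1975th (0.38), Wt1 11034th (-0.18) and Cd2ap 12915th (-0.36). With group means subtracted, the nearest were Med15 (0.86), Shroom3 (0.80), Ube2j2 (0.79), TC1638264 (0.79) and Top3a (0.78), and Podxl came 169th (0.60).

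A wider list of 32 genes of the podocyte and its basement membrane, all on the array, held members that rose and members that fell in IRI. Of 29 tested in IRI vs Control, 7 were higher and 11 lower, that is 24.1% and 37.9% beside 17.0% and 33.7% of all genes, and the median log2 fold change was -0.28 beside -0.17 for all genes. With a signal well above background required on all 8 arrays, the falls of greater size included those of Arhgap24 (an activator of small GTPases, -1.05 ± 0.25, SE, adjusted p = 0.00226) and Npnt (nephronectin of the basement membrane, -0.93 ± 0.26, adjusted p = 0.00713). The largest rises were those of Ezr (ezrin, which links membrane proteins to actin and is also made by tubules, 1.47 ± 0.10, adjusted p = 6.5e-09), Fyn (a kinase that phosphorylates nephrin, 1.24 ± 0.24, adjusted p = 0.000348) and Itga3 (an integrin subunit that binds laminin, 0.85 ± 0.20, adjusted p = 0.00201).

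Against IRI, preconditioning and Hemin gave calls in both directions on this list. In IPC+IRI vs IRI, 7 of 29 were higher and 8 lower (24.1% and 27.6%, beside 26.0% and 17.7% of all genes), and the median log2 fold change was 0.04 beside 0.09 for all genes. The largest rises were those of Dag1 (dystroglycan, 1.35 ± 0.20, SE), Npnt (0.98 ± 0.26) and Fat1 (an atypical cadherin of the slit diaphragm, 0.81 ± 0.13), and the largest falls those of Itga3 (-1.06 ± 0.20), Fyn (-1.02 ± 0.24) and Pdpn (podoplanin, -0.88 ± 0.14). In IRI+Hemin vs IRI, 8 of 30 were higher and 7 lower (26.7% and 23.3%, beside 26.1% and 18.0%), with a median of 0.18 beside 0.08. Dag1 (1.08 ± 0.20), Nck1 (an adaptor between nephrin and actin, 1.00 ± 0.18) and Htra1 (a serine protease, 0.88 ± 0.22) rose most, and Nck2 (the paralog of Nck1, -1.04 ± 0.16), Col4a3 (a collagen of the glomerular basement membrane, -0.68 ± 0.15) and Actn4 (an actin crosslinker, -0.66 ± 0.15) fell most. Both comparisons use the IRI arrays, as IRI vs Control does, so that a chance high or low value in IRI enters all 3.

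Against the groups without ischemia, the same list gave 5 higher and 8 lower of 29 in IPC+IRI vs Control, 7 and 10 of 30 in IRI+Hemin vs Control, and 5 and 7 of 30 in IRI+Hemin vs Hemin, with medians of -0.14, -0.19 and -0.12 beside -0.09, -0.10 and -0.15 for all genes. The shares were 17.2% and 27.6% in the first, beside 23.1% and 32.6% of all genes, 23.3% and 33.3% in the second, beside 24.3% and 33.1%, and 16.7% and 23.3% in the third, beside 16.4% and 27.8%. Without Control replicate 1 the second gave 4 higher. In IPC+IRI vs Control, Ezr (1.49 ± 0.10, SE), Fat1 (0.85 ± 0.13) and Dag1 (0.82 ± 0.20) rose most and Tcf21 (a transcription factor of podocytes and stroma, -1.70 ± 0.40), Slc9a3r2 (a scaffold bound to podocalyxin, -1.35 ± 0.14) and Col4a3 (-1.28 ± 0.15) fell most, with Tcf21 at -1.21 (adjusted p = 0.00419) without IPC+IRI replicate 1. In IRI+Hemin vs Control, Ezr (1.48 ± 0.10), Htra1 (1.12 ± 0.22) and Efnb1 (ephrin-B1, 0.86 ± 0.16) rose most of the genes called and well above background on all 8 arrays. The larger falls there included Tcf21 (-1.21 ± 0.40, and -0.93 with an adjusted p of 0.0622 without IRI+Hemin replicate 4) and Col4a3 (-1.20 ± 0.15). In IRI+Hemin vs Hemin, Ezr (1.29 ± 0.10), Fyn (1.14 ± 0.24) and Efnb1 (0.92 ± 0.16) rose most, and the larger falls included Arhgap24 (-0.93 ± 0.25) and Sema3g (a secreted semaphorin, -0.81 ± 0.18).

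Hemin vs Control called 6 of 30 higher and 7 lower on this list (20% and 23.3%, beside 18.4% and 17.5% of all genes). With 1 array left out the counts ranged from 3 higher and 1 lower without Control replicate 4 to 6 and 8 without Control replicate 2. Fat1 (0.73 ± 0.13, SE), Htra1 (0.66 ± 0.22) and Dag1 (0.61 ± 0.20) rose most, and Nck2 (-0.66 ± 0.16), Itga3 (-0.57 ± 0.20) and Col4a3 (-0.49 ± 0.15) fell most. The calls of Fat1 and Nck2 held without any 1 array, while those of Htra1, Dag1, Itga3 and Col4a3 were lost without any 1 of 5, 4, 6 and 2 of the 8 arrays. The interaction was called for 1 of 30, Slc9a3r2, at 0.68 ± 0.20 (adjusted p = 0.0469), and that call was lost without any 1 of 13 of the 16 arrays (adjusted p between 0.0518 and 0.0937).

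**Figure D4:**
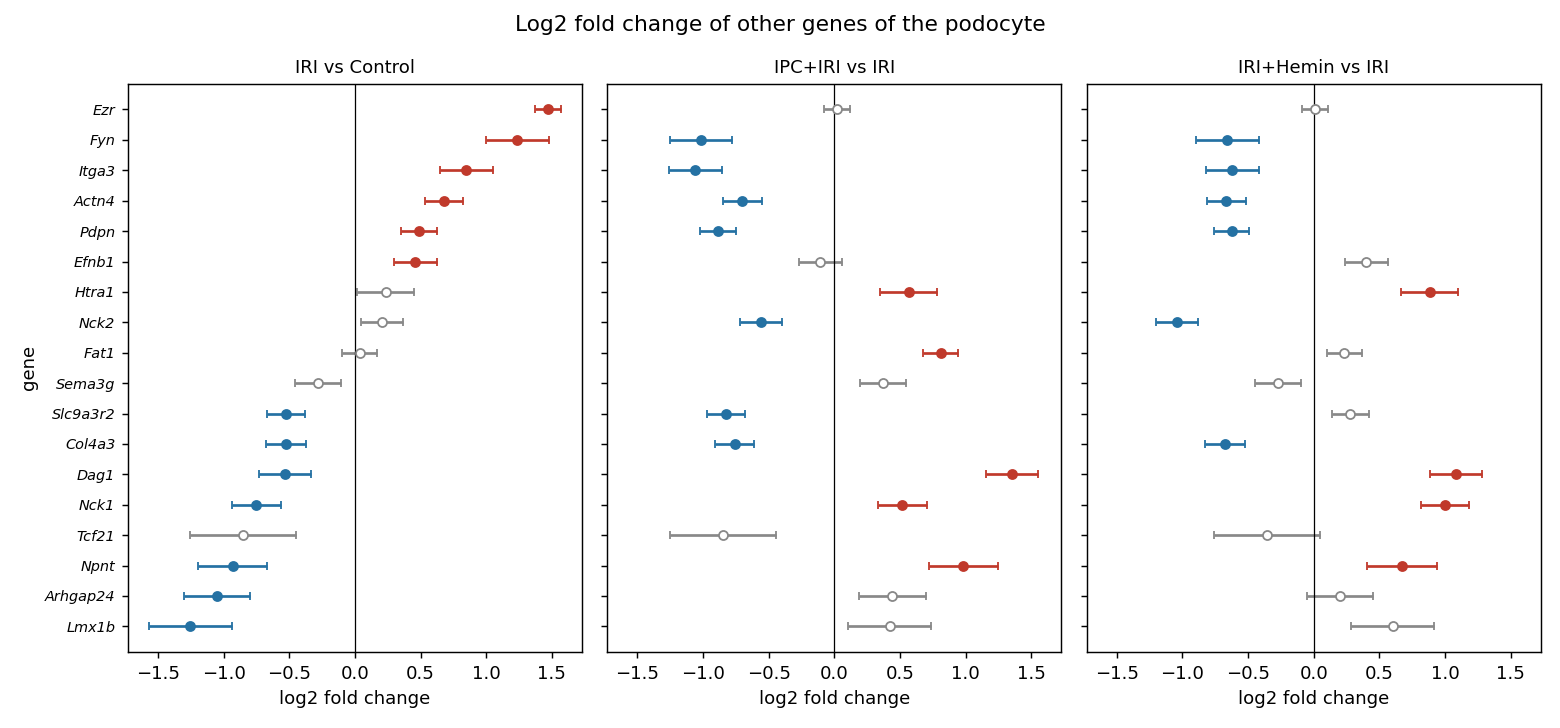
Log2 fold change (x axis) of 18 other genes of the podocyte, those with a fold change in the paragraphs on the wider list and the transcription factor Lmx1b (y axis, ordered by IRI vs Control) in 3 comparisons, as points with the SE as bars, red where called higher, blue where called lower and open grey where not called. In IRI vs Control 6 of these 18 points are red and 7 blue, with Ezr at 1.47 at the top and Lmx1b, which was not well above background on all 8 arrays, at -1.25 at the bottom.

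Markers of the neighbouring glomerular cells gave calls in both directions in IRI vs Control, where 17.0% of all genes were higher and 33.7% lower. Of 10 endothelial markers, 1 was higher and 3 lower, with a range from -1.21 (Ehd3) to 1.39 (Cdh5) and a median of -0.02, and the call of Kdr (-0.44), 1 of the 3, was lost without any 1 of 6 arrays (all but Control replicate 1 and IRI replicate 3). Of 8 mesangial markers, 2 were higher and 2 lower, with a median of -0.17. Of 6 leukocyte markers tested, 1 was higher and 1 lower, the last lost without any 1 of 6 arrays (all but Control replicate 4 and IRI replicate 1), and the summed signal of the 7 on the array was 2.35 to 4.49 in Control and 2.77 to 3.86 in IRI, against 4.84 to 19.8 in IPC+IRI.

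Promoters are given for Cd2ap and Ptpro, which moved in opposite directions in IRI vs Control. The reference table (RefSeq, GRCm38.p6, a later build than that of the arrays) held promoters of Nphs1, Kirrel, Cd2ap and Ptpro, and not of Podxl, Wt1, Synpo and Foxc2. Between 250 bases before and 50 after the start, on both strands, neither promoter held GCGGGGGCG (a motif of WT1 and EGR factors), TGANTCA (AP-1), TAATTA (homeodomain factors) or TGTTTA (forkhead factors), which are found in 2.91%, 7.81%, 5.29% and 13.4% of all 32851 promoters of that length. The E-box CANNTG was found 2 times in Cd2ap and 3 times in Ptpro, and 72.3% of all promoters hold it. The 250 bases before the start follow with the E-boxes in capitals, for Cd2ap at chr17:42876425-42876674 on the minus strand and for Ptpro at chr6:137252049-137252298 on the plus strand.
Cd2ap: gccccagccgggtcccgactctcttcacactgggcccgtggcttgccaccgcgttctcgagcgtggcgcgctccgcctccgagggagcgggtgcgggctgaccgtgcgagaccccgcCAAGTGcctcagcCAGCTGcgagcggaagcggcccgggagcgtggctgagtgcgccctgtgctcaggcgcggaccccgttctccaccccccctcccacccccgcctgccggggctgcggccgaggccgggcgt
Ptpro: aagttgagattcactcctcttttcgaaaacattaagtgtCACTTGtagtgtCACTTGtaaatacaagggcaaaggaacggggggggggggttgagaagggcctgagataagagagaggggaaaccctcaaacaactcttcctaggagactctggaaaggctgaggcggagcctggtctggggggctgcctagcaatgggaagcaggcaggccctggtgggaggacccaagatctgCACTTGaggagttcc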

How the data were processed

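Whole kidney RNA of 20 samples was labelled with Cy3 and read on Agilent whole mouse genome arrays with 1 colour. The authors deposited the scanner output, in which the processed intensity is a spot's signal after background subtraction by Agilent Feature Extraction 9.5.3.1, with arrays not set to a common scale. Their second deposited table holds log2 values, and 100% of its values for the 33598 probes with 1 spot lay within 0.001 of the log2 processed intensity, while 18.1% of the matrix is blank. No normalization between arrays is named in the sources used here. The methods averaged the probes of a gene and used SAM.

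Spots marked as uneven or as population outliers were removed, spots of a probe were averaged, each of the 20 arrays was divided by its 75th percentile over 41174 probes, the probes of each of 27827 gene names were averaged, and the log2 was taken. No spot of a podocyte gene was saturated. A gene was tested with at most 1 of 8 values missing and with at least 3 of 4 arrays of either group well above background. limma 3.58.1 in R 4.3.3 was fitted to all arrays with 5 group means (15 residual degrees of freedom). The Benjamini-Hochberg method was applied within each comparison. No fold cutoff was used. Probes were fitted in the same way. Exact permutation tests were two-sided and can give no p below 0.029 with 4 against 4 arrays. In simulated data with 200 changed genes, limma found 92% to 98% of changes of log2 2 and 65% to 71% of changes of log2 1 in the 7 pairwise comparisons, against 86% and 44% for the interaction. Fewer genes were changed there than were called in any comparison of this series, and no slide effect was simulated. These shares therefore do not give the power of the tests here. The precision is limited by 4 arrays per group.

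The podocyte genes and the marker lists were chosen with earlier results of these data known, and counts over them are descriptions. The text names all 8 podocyte genes, up to 3 of the other podocyte genes per direction and comparison that were called and well above background on all 8 arrays, at most 2 genes of a marker list by size, and the 5 genes most like Nphs1. Some genes that this rule names are not reported here. The alternatives tried were normexp correction (offset 50), other scalings between arrays, other ways to join probes, the deposited log2 matrix, other filters, the replicate number as a block, SAM, each array left out, and a fit restricted to the groups being compared. Leaving out arrays for single probes and for the gene lists was chosen after seeing the data. A random block for the slide could not be fitted, since every group has a slide to itself.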

Additional observations from a re-analysis of the deposited data

Results flagged for a closer look

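In 3 of the 40 sets of 4 arrays (8 podocyte genes in 5 groups), 1 array lay far from the other 3 by Dixon's test at the 95% level, which chance does in about 1 in 20 sets. Podxl was at -0.69 in IPC+IRI replicate 1, with a gap of 0.834 of the group's range, and the lower Podxl of IPC+IRI vs Control kept its call without that array. Foxc2 was at -1.10 in Control replicate 2, with a gap of 0.852 of the range. Kirrel was at -6.98 in Hemin replicate 4, where it was not well above background.

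The difference with ischemia differed between kidneys with and without Hemin on 2 single probes, by the interaction of the limma fit over all probes, and neither gene as a whole passed that test (Synpo 0.58, adjusted p = 0.2, and Cd2ap -0.05, adjusted p = 0.886). Probe A_52_P62986 of Synpo had an interaction of 1.59 ± 0.43 (SE, adjusted p = 0.028), as it fell by 1.04 on the log2 scale in IRI vs Control and gave 0.54 in IRI+Hemin vs Hemin. That call was lost without Hemin replicate 3, IRI replicate 1 or IRI+Hemin replicate 2 (adjusted p between 0.0545 and 0.0595). Probe A_51_P123676 of the same gene had an interaction of 0.11 (adjusted p = 0.867). Probe A_51_P229076 of Cd2ap had an interaction of -0.60 ± 0.18 (adjusted p = 0.0483), with a rise of 0.93 in IRI vs Control and a difference of 0.33 in IRI+Hemin vs Hemin. The interaction call was lost without any 1 of 14 of the 16 arrays (all but IRI replicate 4 and Hemin replicate 2, adjusted p between 0.0546 and 0.0993), and probe A_52_P175066 had 0.04 (adjusted p = 0.923).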

How the results depend on the processing

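Over the fold changes and interactions of single podocyte genes, 515 of 609 results under other alternatives and 438 of 504 with 1 array left out kept their direction and side of the threshold. Results that were not called and stayed so are among them, and the counts of genes called are not. Below, counts are of podocyte genes, higher or lower, unless other podocyte genes are named, and each cause was not tested. SAM called 0 podocyte genes in its 5 comparisons, and of the other podocyte genes 2 higher and 2 lower in IRI vs Control and in IPC+IRI vs Control and 0 elsewhere. With normexp the counts were 0 higher and 1 lower in IRI vs Control, 1 lower in IPC+IRI vs Control, 0 higher in IPC+IRI vs IRI, 1 higher in IRI+Hemin vs IRI, 0 and 0 in IRI+Hemin vs Hemin and 1 lower in IRI+Hemin vs Control. Other podocyte genes then gave 5 lower in IRI vs Control, 4 higher in IPC+IRI vs IRI, 2 lower in Hemin vs Control and 0 in the interaction. Without normalization between arrays, which moved the median of all genes in Hemin vs Control from 0.06 to 0.62, the counts were 1 lower in IRI vs Control, 0 lower in IPC+IRI vs Control, 2 higher in IPC+IRI vs IRI, 4 higher in Hemin vs Control, 0 higher and 1 lower in IRI+Hemin vs Hemin and 2 higher and 0 lower in IRI+Hemin vs Control, and Ptpro turned to 0.10 in the last (adjusted p = 0.703). Other podocyte genes then gave 4 lower in IRI vs Control, 8 higher and 3 lower in IPC+IRI vs Control, 11 and 0 in IPC+IRI vs IRI, 0 lower in IRI+Hemin vs IRI, 13 and 0 in Hemin vs Control, 3 higher in IRI+Hemin vs Hemin, 0 lower in IRI+Hemin vs Control and 0 in the interaction. With the 75th percentile over probes well above background, 4 were lower in IPC+IRI vs Control, and other podocyte genes gave 4 higher in IRI+Hemin vs Control and 2 in the interaction. With the mean of log2 values of the probes, 0 were higher in IPC+IRI vs IRI and 1 higher and 1 lower in IRI+Hemin vs IRI, other podocyte genes gave 4 lower in Hemin vs Control and 0 in the interaction, and 3 values turned, Cd2ap in IRI+Hemin vs IRI (-0.25) and Ptpro in IPC+IRI vs IRI (-0.13) and IRI+Hemin vs IRI (-0.021). With the probe of highest signal, 1 was higher in IRI+Hemin vs IRI. In the deposited log2 matrix, 2 were higher in IPC+IRI vs IRI, 1 in IRI+Hemin vs IRI, and 0 higher and 1 lower in IRI+Hemin vs Hemin, and other podocyte genes gave 3 higher in IRI vs Control, 2 higher in IPC+IRI vs Control, 4 lower in IRI+Hemin vs IRI, 1 lower in Hemin vs Control and 3 higher in IRI+Hemin vs Control. Without the filter on dim genes, the interaction of other podocyte genes gave 0. With genes well above background on all arrays of the comparison, 2 were higher in IPC+IRI vs IRI, and in a fit of the compared arrays alone 2 were higher there and 1 lower in IRI+Hemin vs Control. With the replicate number as a block, other podocyte genes gave 4 lower in Hemin vs Control and 0 in the interaction, Ptpro in IRI+Hemin vs Control lost its call (adjusted p = 0.0694), and no other call of a podocyte gene changed. Samples of the same number deviated with r between -0.318 and 0.149, and were taken to share only a number. In IRI vs Control all r were above 0 (0.05 to 0.149) and 4 of 4 samples correlated best with their own number, against 0 or 1 of 4 in the other comparisons.

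With 1 array left out, the counts ranged from 1 to 3 lower in IRI vs Control, 2 to 3 lower in IPC+IRI vs Control, 1 to 2 higher and 0 to 1 lower in IPC+IRI vs IRI, 1 to 2 higher in IRI+Hemin vs IRI, 1 to 2 lower in IRI+Hemin vs Hemin and 1 to 4 lower in IRI+Hemin vs Control. Of all genes called, the share that was higher moved with the scaling. It went from 41.5% to 75.2% in IPC+IRI vs Control, from 59.5% to 90.9% in IPC+IRI vs IRI, from 59.2% to 91.5% in IRI+Hemin vs IRI, from 51.2% to 94.8% in Hemin vs Control and from 42.3% to 77.3% in IRI+Hemin vs Control without normalization, from 33.5% to 56.5% in IRI vs Control with normexp, and from 51.2% to 35% in Hemin vs Control with the percentile over probes well above background. Kirrel is limited by its signal, which was not above background on 18 of 20 arrays.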
